A study of Mus musculus with 246 samples.

Results

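The Fos and Jun families are 8 genes in the deposited table: Fos, Fosb, Fosl1 and Fosl2 of the Fos family, Jun, Junb and Jund of the Jun family, and Atf3. They were found by gene symbol, and all 8 were present among the 56691 genes of the table. Fos (ENSMUSG00000021250.14) lies on chromosome 12, Fosb (ENSMUSG00000003545.4) on chromosome 7, Fosl2 (ENSMUSG00000029135.11) on chromosome 5, Fosl1 on chromosome 19, Jun on chromosome 4, Junb and Jund on chromosome 8 and Atf3 on chromosome 1. RNA was sequenced from tissue punches of 6 brain regions of adult male mice of the outbred CD1 stock, with bilateral punches of a mouse pooled into 1 library per region. The regions were the medial prefrontal cortex (mPFC), the anterior cingulate cortex (ACC), the shell of the nucleus accumbens (Nacc), the basolateral amygdala (BLA), the dorsomedial thalamus (DMT) and the ventral hippocampus (vHipp). Mice had 1 of 3 early-life histories. Ctrl_Vehicle mice were reared with standard bedding by dams injected with the empty slow-release gel. ELA_Vehicle mice went through early life adversity (ELA), a paradigm of limited bedding and nesting material in the first days after birth, with the same vehicle. ELA_SAFit2 mice went through the same adversity while the dam carried SAFit2, an inhibitor of the stress chaperone FKBP51 that reaches the pups through the milk. There was no control group with SAFit2. As adults, mice were taken either after 10 minutes with an unfamiliar conspecific (SocialInteraction; 6 Ctrl_Vehicle, 7 ELA_Vehicle and 7 ELA_SAFit2 mice) or without this encounter (NoInteraction; 7 mice in each group). This gave 41 mice with 6 libraries each, with total estimated counts between 20804247 and 43351424.

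Fos and Jun proteins are leucine zipper factors that pair into dimers known as AP-1. Jun proteins can pair with each other, whereas Fos proteins need a Jun partner to bind DNA. In neurons the genes are classical immediate early genes: synaptic activity and calcium entry switch on their transcription through factors already present in the cell, and Fos transcripts in particular rise and decay quickly, which made Fos a common marker of recently active neurons. Fosb also gives rise to a truncated protein that is long-lived, and gene-level counts do not separate its transcripts. Punched tissue holds many cell types, so fewer cells of a type and less RNA per cell cannot be told apart in these values.

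The promoters of Fos, Fosb and Fosl2 are shown because these 3 genes carry the comparisons that follow. The windows are the 250 bases before the annotated start, 5′ to 3′ on the gene's strand, from RefSeq on the build GRCm38.p6; the counts of the study were made on GRCm39, so no position here refers to that build. Capitals mark the 5-base core of the cAMP response element (CRE), TGACG or CGTCA, which the activity-regulated factor CREB recognises. The Fos window is chr12:85473640-85473889 (plus strand), the Fosb window chr7:19310046-19310295 (minus strand) and the Fosl2 window chr5:32136222-32136471 (plus strand).
Fos: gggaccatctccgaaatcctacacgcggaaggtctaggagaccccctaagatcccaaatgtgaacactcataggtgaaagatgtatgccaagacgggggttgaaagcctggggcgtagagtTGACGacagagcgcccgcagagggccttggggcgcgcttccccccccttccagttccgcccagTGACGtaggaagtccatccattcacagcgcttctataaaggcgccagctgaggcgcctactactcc
Fosb: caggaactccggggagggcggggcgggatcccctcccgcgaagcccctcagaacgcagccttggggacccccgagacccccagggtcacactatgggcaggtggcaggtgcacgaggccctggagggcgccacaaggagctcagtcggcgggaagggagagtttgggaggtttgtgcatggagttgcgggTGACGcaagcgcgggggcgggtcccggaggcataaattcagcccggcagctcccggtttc
Fosl2: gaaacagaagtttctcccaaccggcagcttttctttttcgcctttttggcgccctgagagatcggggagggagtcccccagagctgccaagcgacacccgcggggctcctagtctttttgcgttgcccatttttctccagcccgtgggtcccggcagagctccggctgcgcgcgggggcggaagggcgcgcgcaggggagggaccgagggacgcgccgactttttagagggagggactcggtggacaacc

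The Fos window held 2 CRE cores, 129 to 125 and 66 to 62 bases before the start. The Fosb window held 1, from 60 to 56 bases before the start, and the Fosl2 window held none. Promoters were found for 7 of the 8 genes, all but Fosl1. Among the others, Junb held 1 core (106 to 102 bases before the start), Atf3 held 1 (7 to 3 bases before the start), and Jun and Jund held 0. Of all 32851 promoter windows of this length, 17.8% held a core on either strand. The full CRE, TGACGTCA, which contains the core, was in 1.5% of all windows, the AP-1 site TGANTCA in 6.7% and the CArG box of serum response factor in 1.5%, and none of these was in any of the 7 windows. A match is a string of letters and not evidence of binding. Sites outside these 250 bases were not searched, so the absence of a site holds for the windows only.

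The level of each gene is given in CPM, the estimated count scaled to a common library total with TMM factors. A value of CPM is compared between libraries of 1 gene and not between genes. Of the 8 genes, 7 passed the filter on low counts in every region. The exception was Fosl1, which had 119 counts in all libraries together, was above 0 in 83 of them and never exceeded 4 counts, so that it was not tested by region. Atf3 passed with a median of 8 counts and at most 32 in a library. Median counts of the other genes lay between 279.5 (Fos) and 2335 (Jund).

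Before any comparison, each library was checked against the other regions of the same mouse with genes that differ between individual mice. In the Nacc, 12 of 41 libraries (6 NoInteraction, 6 SocialInteraction) matched another mouse than the labelled one, and 8 of these matched a mouse of the other interaction state. The 12 mice they matched were the labelled mice of these same 12 libraries, with correlations of at least 0.85. No comparison here assigned a library to the mouse it matched. The responses of members in the Nacc are therefore given with all libraries as labelled and without these 12, which leaves 15 NoInteraction and 14 SocialInteraction libraries. Pathway lists, cell type markers and comparisons of early-life groups at an equal interaction state were computed in the Nacc with the libraries as labelled only. In the ACC, 1 SocialInteraction library matched another mouse by a small margin, a correlation of 0.71 against 0.68 with its own label, and without it the same number of members passed in the comparison pooled over early-life groups. The ACC library of mouse 89 matched its own mouse with a correlation of 0.60, the lowest among all libraries that matched their label. Libraries in the mPFC, BLA, DMT and vHipp matched their own mouse in every case.

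To ask how the families respond to a brief social encounter, SocialInteraction was compared with NoInteraction in each region as the mean of the differences within the 3 early-life groups. Neither the time from the encounter to tissue collection nor the handling of NoInteraction mice is given here. A response therefore means the difference between mice of both labels. Fosb was higher after social interaction in 5 of the 6 regions, and Fosl2 in 3. Fos, Junb, Jun, Jund and Atf3 did not pass the threshold in any region. No member was lower. The share of all tested genes that passed in the same comparison was 7.4% for the mPFC, where 2 of the 7 members passed, 4.15% for the ACC (2 members), 0% for the Nacc (0 members), 1.49% for the BLA (1 member), 1.6% for the DMT (2 members) and 1.21% for the vHipp (1 member).

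**Figure D1:**
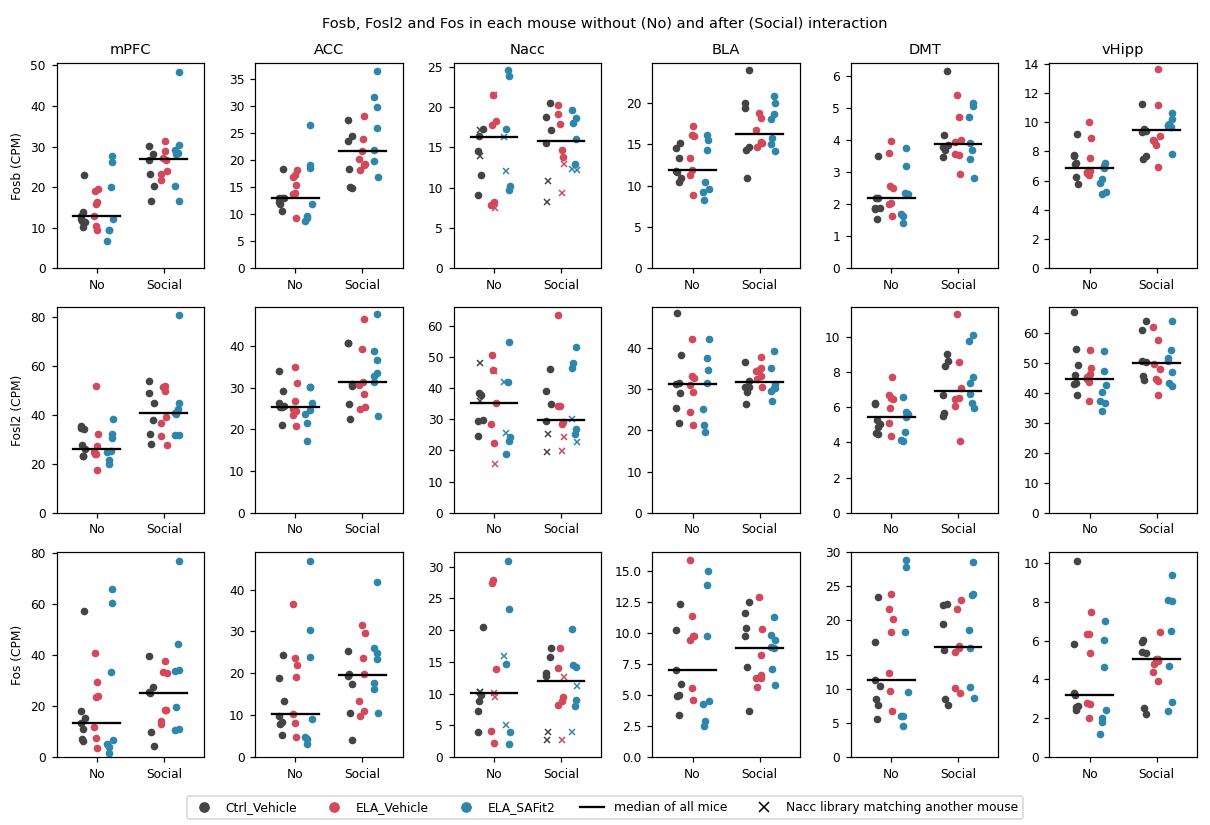
Level of Fosb (top), Fosl2 (middle) and Fos (bottom) in CPM in every mouse of the 6 regions, without (No) and after (Social) interaction; points are mice coloured by early-life group, bars are medians of all mice of a state, and crosses are Nacc libraries that match another mouse. For Fosb, every SocialInteraction mouse lies above the NoInteraction median in the mPFC, ACC, DMT and vHipp, while the Fos values of both states overlap over nearly their whole range.

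Fosb, the Fos gene with calls in 5 regions, is described first. In the mPFC its level was 6.84 CPM at the lowest, 12.8 at the median and 27.8 at the highest among the 21 NoInteraction mice. Among the 20 SocialInteraction mice these values were 16.5, 27.0 and 48.5 CPM. All 20 SocialInteraction mice lay above the NoInteraction median and 9 above the highest NoInteraction mouse, so the groups overlapped only in their inner parts. The log2 difference was 0.85 (95% interval 0.56 to 1.14, adjusted p = 0.000125). The ACC, which borders the mPFC, gave a similar picture. There Fosb lay at 8.80, 13.04 and 26.5 CPM (lowest, median, highest) without interaction and at 14.9, 21.7 and 36.5 CPM after it. Again 20 of 20 mice exceeded the NoInteraction median, with a log2 difference of 0.67 (0.43 to 0.91, adjusted p = 0.000617).

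The DMT had the lowest Fosb levels of the 6 regions, and Fosb rose there too. Without interaction the values were 1.41, 2.20 and 3.97 CPM, and after interaction 2.82, 3.88 and 6.16 CPM. The lowest SocialInteraction mouse was above 16 of the 21 NoInteraction mice. The log2 difference was 0.81 (0.56 to 1.05, adjusted p = 0.000246).

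Fosb also rose in the vHipp and the BLA. In the vHipp the levels were 5.11, 6.86 and 10.0 CPM without and 6.96, 9.46 and 13.6 CPM after interaction, with 20 of 20 mice above the NoInteraction median. The log2 difference was 0.45 (0.30 to 0.60, adjusted p = 0.000457). In the BLA they were 8.24, 11.9 and 17.2 CPM without and 10.9, 16.2 and 24.0 CPM after interaction, and 19 of 20 mice exceeded the NoInteraction median. This gave a log2 difference of 0.44 (0.25 to 0.62, adjusted p = 0.0097).

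In the Nacc no shift in Fosb passed the threshold, with or without the 12 mismatching libraries. The values do not show that a response was absent there. With all libraries as labelled, Fosb was 7.45, 16.3 and 24.6 CPM without and 8.19, 15.8 and 20.5 CPM after interaction. The groups coincided, with a log2 difference of 0.04 (-0.26 to 0.34, adjusted p = 1.0). In this region edgeR called 0 genes in all, 391 genes had an unadjusted p under 0.05, none of them a member, and DESeq2 called 0 as well. Without the 12 mismatching libraries the medians of Fosb were 16.5 CPM (n = 15) and 18.0 CPM (n = 14), the lowest values 7.85 and 12.98 CPM, the log2 difference 0.21 (adjusted p = 0.89), and 4 genes were called, again without a member.

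Fosl2, also called Fra-2, encodes a Fos protein that is induced later and more slowly than Fos in many cell types. It rose in the mPFC, DMT and ACC. In the mPFC the level was 17.6, 26.0 and 51.6 CPM without interaction and 27.7, 40.6 and 80.7 CPM after it, and all 20 SocialInteraction mice exceeded the NoInteraction median. The log2 difference was 0.59 (0.35 to 0.82, adjusted p = 0.000936), and 1 ELA_SAFit2 mouse with 80.7 CPM stood above the rest. Without that mouse the log2 difference was 0.52. In the DMT, Fosl2 went from 4.08, 5.45 and 7.70 CPM to 4.08, 6.93 and 11.3 CPM, a log2 difference of 0.43 (0.24 to 0.62, adjusted p = 0.00742). In the ACC it went from 17.3, 25.3 and 35.02 CPM to 22.5, 31.5 and 47.7 CPM, a log2 difference of 0.36 (0.18 to 0.54, adjusted p = 0.0153). The lowest values of both states coincided in the DMT, where 19 of 20 SocialInteraction mice were above the NoInteraction median, against 17 of 20 in the ACC.

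In the remaining regions Fosl2 did not pass. Its log2 difference was 0.18 in the vHipp (0.05 to 0.31, unadjusted p = 0.00677, adjusted p = 0.171) and 0.06 in the BLA (-0.11 to 0.24, adjusted p = 0.831). In the Nacc it was -0.00 with all libraries (-0.32 to 0.31) and 0.20 without the 12 mismatching ones (adjusted p = 0.913).

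Fos itself, the most widely used marker of the family, differed widely between mice of 1 condition. In the mPFC, NoInteraction mice spanned 1.77 to 65.8 CPM with a median of 13.3, and SocialInteraction mice spanned 4.34 to 76.7 CPM with a median of 25.3. The medians thus differed 1.90-fold, and in the ACC, with medians of 10.2 and 19.6 CPM, 1.92-fold. Yet single NoInteraction mice reached as high as SocialInteraction mice, with only 1 of 20 SocialInteraction mice in the mPFC and 0 in the ACC above the highest of them. The log2 difference of Fos was 0.31 (-0.41 to 1.03) for the mPFC and 0.31 (-0.25 to 0.87) for the ACC, then 0.14 in the BLA (-0.26 to 0.53), 0.26 in the DMT (-0.18 to 0.71) and 0.31 in the vHipp (-0.12 to 0.73), and -0.17 in the Nacc (-0.77 to 0.43). Without the 12 mismatching libraries the Nacc value was -0.00 in the count model, and the mean difference in log2 CPM there went from -0.01 to 0.37. The smallest adjusted p was 0.581, in the vHipp. All of these intervals include 0. They also include the size of the Fosb response in the same region, except in the DMT, where that response was 0.81. The model of counts weights mice with high levels more than a log scale does. With limma on log2 CPM the Fos difference was 0.69 in the mPFC (adjusted p = 0.33) and 0.53 in the ACC (adjusted p = 0.36).

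The spread of Fos between mice of 1 condition was an SD of 1.23 in log2 CPM in the mPFC, against 0.46 for Fosb, 0.38 for Fosl2 and 0.22 for Jun. In the vHipp the SD of Fos was 0.64 and that of Fosb 0.22. Leaving out 1 mouse moved the Fos difference in the mPFC between 0.20, without the ELA_SAFit2 SocialInteraction mouse that had the highest Fos level, and 0.53, without a Ctrl_Vehicle NoInteraction mouse. That of Fosb stayed between 0.79 and 0.91.

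Of the Jun genes, which encode the partners that Fos proteins need, none passed in any region. Junb, whose transcript is also induced rapidly by activity, came nearest: its log2 difference was 0.21 in the DMT (0.03 to 0.40, unadjusted p = 0.0221, adjusted p = 0.279) and 0.16 in the BLA (0.01 to 0.31, unadjusted p = 0.0331, adjusted p = 0.277). Its medians in the DMT were 5.77 CPM without and 6.85 CPM after interaction, in the BLA 42.6 and 47.5 CPM, and in both regions the ranges overlapped. In the mPFC, ACC and vHipp Junb differed by 0.13, 0.20 and 0.13, and in the Nacc by -0.16 (-0.06 without the 12 libraries).

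Jun lay between -0.03 and 0.08 in the regions outside the Nacc and at -0.01 in the Nacc (0.05 without the 12 libraries). The intervals of Jun were narrow, -0.15 to 0.12 in the mPFC and -0.13 to 0.09 in the DMT, and in these regions they lay wholly below the interval of Fosb. Jund, which is expressed at a steady level in many tissues, ranged from -0.05 in the vHipp to 0.13 in the ACC (-0.01 to 0.26, adjusted p = 0.337), with 0.02 in the Nacc (0.03 without the 12 libraries). Without mouse 89 the Jund difference in the ACC was 0.055. Atf3, a stress-induced relative that can dimerise with Jun proteins, had log2 differences of 0.33 in the mPFC, 0.24 in the vHipp, 0.08 for the ACC, -0.06 in the Nacc (-0.00 without the 12 libraries), -0.14 in the DMT and -0.19 in the BLA, and the smallest adjusted p was 0.600, in the vHipp. Its widest interval was -0.26 to 0.93, in the mPFC, where the difference was 0.11 without mouse 79.

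**Figure D2:**
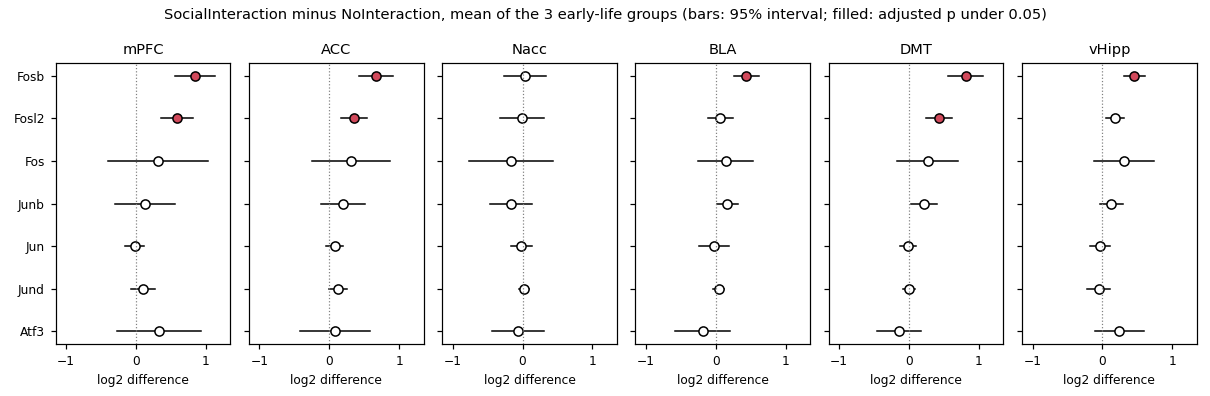
Log2 difference between SocialInteraction and NoInteraction (x axis) of the 7 tested members (y axis) in each region; points are the mean of the 3 within-group differences, bars the 95% interval, and filled points have an adjusted p under 0.05. Fosb is filled in every region but the Nacc, Fosl2 in the mPFC, ACC and DMT, and the bar of Fos is the widest of the 7 members in every region.

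Whether Fosb responded more than its relatives was tested on the difference of log2 CPM between Fosb and each other member within a mouse, with interaction labels permuted within early-life groups (2-sided permutation test with 100000 resamples, 36 tests, Benjamini-Hochberg adjustment). Fosb had the most calls of the members in these same mice, so this comparison is not independent of those calls. In the mPFC, ACC, BLA, DMT and vHipp the Fosb response exceeded those of Fosl2, Jun, Junb, Jund and Atf3, with adjusted p-values between 4.5e-05 and 0.027. For Atf3, the pseudocount of 0.5 CPM exceeds the mean NoInteraction level in every region (at most 0.427 CPM), which shrinks its differences in log2 CPM. In the mPFC its response was 0.09 on this scale, against 0.33 (-0.26 to 0.93) in the count model. The tests against Atf3 therefore do not show how its response compares with that of Fosb. The excess over Fosl2 was between 0.25 in the vHipp (adjusted p = 0.0131) and 0.34 in the ACC (adjusted p = 0.000922). In log2 CPM the Fos response was 0.63 in the mPFC and 0.50 in the ACC, against 0.31 in each in the count model. Against Fos the excess of Fosb passed only in the DMT, at 0.36 (adjusted p = 0.0392). It was 0.23 in the mPFC (adjusted p = 0.464), 0.17 in the ACC (adjusted p = 0.464), 0.20 in the BLA (adjusted p = 0.225), 0.06 in the vHipp (adjusted p = 0.73) and 0.09 in the Nacc (adjusted p = 0.691; without the 12 libraries -0.11, adjusted p = 0.655). Responses of Fosb and Fos therefore could not be separated outside the DMT. In the Nacc only the difference from Junb passed, 0.18 (adjusted p = 0.0121) with all libraries and 0.24 (adjusted p = 0.00858) without the 12.

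Mice with more Fos also had more Fosb and Junb. Over the 41 mice of a region, after the mean of each of the 6 conditions was taken out, Fos and Fosb in the mPFC had Pearson's r = 0.89 and Spearman's rho = 0.93 (permutation p = 1e-05 for both, the smallest that 100000 resamples can give, with adjusted p = 8.4e-05 for r and adjusted p = 9.69e-05 for rho). Without the 2 mice farthest from the median of Fos, r was 0.89. In the other regions r of Fos with Fosb was 0.52 in the vHipp, 0.70 in the BLA, 0.76 in the DMT, 0.83 in the Nacc and 0.86 in the ACC. It passed adjustment over all 126 pairs of members and regions in each of the 6 regions, and without the 2 farthest mice r lay between 0.48 and 0.89. In the Nacc without the 12 libraries r was 0.90 (n = 29). Fos with Junb passed in all 6 regions too, with r from 0.49 in the vHipp to 0.93 in the mPFC, and so did Fosb with Junb, with r from 0.40 in the vHipp to 0.90 in the Nacc. Fosb and Fosl2 were tied less closely: r was 0.80 in the Nacc, 0.66 in the ACC, 0.48 in the mPFC and 0.42 in the BLA, which passed, and 0.31 in the DMT and 0.10 in the vHipp, which did not. Of the 126 correlations 110 were positive, and 52 passed for Pearson's r and 48 for Spearman's rho. Members of a library share its depth and composition. The share of positive or passing correlations among pairs of other genes is not given, so these counts are descriptions only.

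**Figure D3:**
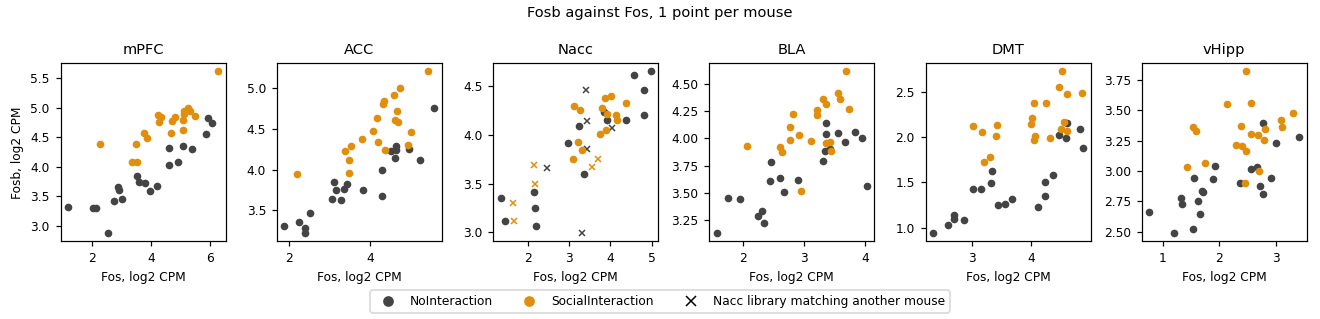
Fosb (y axis) against Fos (x axis), both in log2 CPM, with 1 point per mouse in each region, coloured by interaction state; crosses are Nacc libraries that match another mouse. In the mPFC, ACC and DMT most points after SocialInteraction lie above those of NoInteraction mice with the same Fos level, by 0.65, 0.49 and 0.59 in log2 CPM after the common slope is taken out.

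The variation that Fosb shares with Fos was then removed with the slope of Fosb on Fos within conditions (0.33 in the mPFC), a comparison that was added after the values were seen. The value is the Fosb response less the slope times the Fos response, and is not the difference between the responses of both genes. At an equal Fos level, Fosb was higher after SocialInteraction by 0.65 log2 CPM in the mPFC, 0.59 in the DMT, 0.49 in the ACC and 0.35 in both BLA and vHipp (permutation p = 1e-05, the smallest possible, and adjusted p = 3e-05 over 24 tests in each of these regions). In the Nacc it was 0.08 (permutation p = 0.335, adjusted p = 0.424), and 0.12 without the 12 libraries (permutation p = 0.108, adjusted p = 0.225). At an equal Fosb level, Fos was lower after SocialInteraction by a log2 difference of -1.44 in the mPFC, -0.92 for the ACC, -0.82 in the DMT and -0.41 in the BLA (adjusted p = 3e-05 in the mPFC, ACC and DMT and 0.00852 in the BLA, permutation test), while in the vHipp it was -0.28 (adjusted p = 0.146). Fosl2 at an equal Fos level was higher in the mPFC (0.48, adjusted p = 0.000187), ACC (0.26, adjusted p = 0.00528), DMT (0.36, adjusted p = 0.000528) and vHipp (0.16, adjusted p = 0.0407), but not in the BLA (0.05, adjusted p = 0.573) or the Nacc (-0.00, adjusted p = 0.975). Junb at an equal Fos level differed in the BLA alone among the 6 regions (0.10, adjusted p = 0.0427). In the mPFC it was -0.14 (adjusted p = 0.13) and in the ACC -0.03 (adjusted p = 0.738). The slope carries the measurement error of the gene held equal, and the part of this in the differences was not tested.

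The responses were next compared between early-life groups. In each group alone the numbers of mice were 7 against 7, or 7 against 6, and 1 test of a member passed: Fosb in the vHipp of ELA_SAFit2 mice. There Fosb was 5.11, 6.12 and 7.18 CPM (lowest, median, highest) without and 7.85, 9.81 and 10.7 CPM after interaction, so the groups did not overlap. The log2 difference was 0.67 (0.41 to 0.93, adjusted p = 0.038, and between 0.000917 and 0.0488 over the alternatives). Groups of Fosb also did not overlap in ELA_Vehicle mice in the mPFC, where the highest NoInteraction mouse had 19.5 CPM and the lowest SocialInteraction mouse 21.9 CPM, and in the ACC, with 18.2079 and 18.2166 CPM. Neither passed (mPFC 0.81, adjusted p = 0.184; ACC 0.55, adjusted p = 0.29). The nearest others were in the mPFC of ELA_SAFit2 mice, Fosl2 with 0.73 (adjusted p = 0.0505) and Fosb with 0.88 (adjusted p = 0.0573). How often the groups of genes outside the families did not overlap is not given, so non-overlap is only a description of these mice.

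The shares of all tested genes that passed within groups were small. For Ctrl_Vehicle they were 0.171% in the mPFC, 0.0191% in the vHipp, 0.00631% in the DMT and 0% in the ACC, Nacc and BLA. For ELA_Vehicle they were 0.0443% in the mPFC, 0.0191% in the ACC and 0% in the other 4 regions. For ELA_SAFit2 they were 1.21% for the mPFC, 0.07% for the ACC, 0.0379% in the DMT, 0.0318% in the vHipp and 0% in Nacc and BLA. At an unadjusted p under 0.05, edgeR gave Fosb in 14 of the 15 tests outside the Nacc, Fosl2 in 7, Junb and Jund in 2 each, Fos and Atf3 in 1 each and Jun in 0. The share of all genes at this unadjusted threshold is not given, so these counts are descriptions only. Outside the Nacc the log2 difference of Fosb was above 0 in each of 15, from 0.28 in the BLA of ELA_Vehicle mice (-0.03 to 0.59) to 0.97 in the DMT of Ctrl_Vehicle mice (0.53 to 1.40, adjusted p = 0.186). In the Nacc the 3 values were 0.09, 0.08 and -0.05 in Ctrl_Vehicle, ELA_Vehicle and ELA_SAFit2 mice, and 0.39, 0.23 and -0.00 without the 12 libraries, with no call.

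DESeq2 gave more calls within groups than edgeR. It also called Fosb in the DMT of Ctrl_Vehicle mice (0.97, adjusted p = 0.0241) and, in ELA_SAFit2 mice, Fosb in the mPFC (0.87, adjusted p = 0.02), ACC (0.83, adjusted p = 0.0214) and DMT (0.82, adjusted p = 0.0243) and Fosl2 in the mPFC (0.73, adjusted p = 0.0152). With limma, Fosb in the mPFC of ELA_SAFit2 mice passed (0.995, adjusted p = 0.026).

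**Figure D4:**
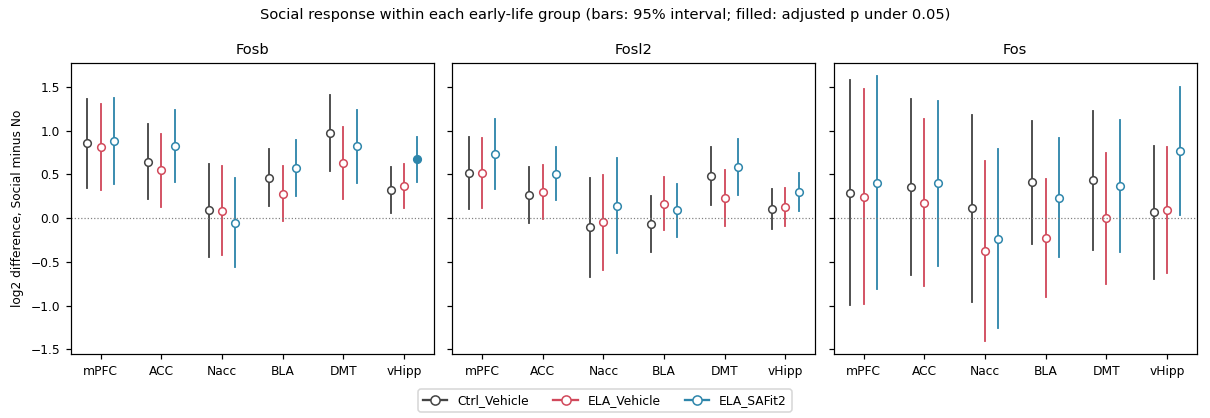
Log2 difference between SocialInteraction and NoInteraction (y axis) of Fosb, Fosl2 and Fos in each region (x axis) and early-life group; bars are 95% intervals and filled points have an adjusted p under 0.05. The only filled point is Fosb in the vHipp of ELA_SAFit2 mice, and in each region the bars of the 3 groups overlap.

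The difference of the response between groups was tested directly, and no member passed. The response of ELA_Vehicle minus that of Ctrl_Vehicle gave 0 members and 0% of genes in each region, and the response of ELA_SAFit2 minus that of ELA_Vehicle gave 0 members, against 0% of genes in the mPFC and BLA, 0.0318% for the ACC, 0.0315% for the Nacc, 0.0379% for the DMT and 0.0382% in the vHipp. DESeq2 also called 0 members in these 12 comparisons. At an unadjusted p under 0.05 edgeR gave 1 member, Jund in the BLA, where the response was larger by 0.21 in ELA_SAFit2 than in ELA_Vehicle mice (adjusted p = 0.977). Each member had 12 such tests, and the share of all genes at this unadjusted threshold is not given. For Fosb in the vHipp, the response of ELA_SAFit2 exceeded that of ELA_Vehicle by 0.30 (-0.06 to 0.66, adjusted p = 1.0), so its call in ELA_SAFit2 alone is not a difference between groups. For Fosb in the mPFC the same difference was 0.07 (-0.63 to 0.76), and that of ELA_Vehicle from Ctrl_Vehicle was -0.04 (-0.75 to 0.67). These intervals are wide and leave room for differences nearly as large as the response itself.

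Early-life groups were also compared at an equal interaction state, ELA_Vehicle with Ctrl_Vehicle and ELA_SAFit2 with ELA_Vehicle, in each region without and after interaction. In these 24 comparisons 0 members passed edgeR's test. Of all genes, 0.00632% passed in the mPFC of NoInteraction mice in each of both comparisons, 0.00636% in the vHipp of SocialInteraction mice for ELA_Vehicle against Ctrl_Vehicle, and 0% in the others. At an unadjusted p under 0.05 there were 2 members, where each member had 24 tests and the share of all genes at this threshold is not given. Fosb in the vHipp of NoInteraction mice was lower in ELA_SAFit2 than in ELA_Vehicle (-0.30, adjusted p = 1.0), with medians of 6.12 and 6.65 CPM. Jund in the BLA of SocialInteraction mice was higher in ELA_SAFit2 (0.15, adjusted p = 0.989). Differences of Fosb in these comparisons lay between -0.30 and 0.28, those of Fos between -0.41 and 0.48.

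With the counts of the 6 regions summed for each mouse, so that the mouse was the unit (12 of these sums hold a Nacc library that matches another mouse), 17381 genes were tested, Fosl1 among them. Fosb was 7.22, 10.1 and 17.8 CPM without and 10.5, 15.6 and 23.6 CPM after interaction, a log2 difference of 0.52 (SE 0.105, adjusted p = 0.00148). Fosl2 was 20.3, 28.8 and 34.3 CPM without and 24.1, 34.0 and 41.3 CPM after it, a difference of 0.24 (SE 0.0593, adjusted p = 0.00692). These were 2 of 8 members, where 8.56% of all genes passed. Fos went from a median of 9.59 to 15.8 CPM and did not pass (adjusted p = 0.761), and Fosl1 had medians of 0.0186 and 0.0145 CPM (adjusted p = 0.984). Within groups, Fosl2 passed in ELA_SAFit2 mice (0.39, adjusted p = 0.0424; 1.61% of genes passed), with Fosb at an adjusted p of 0.0862. Without the Nacc, Fosb had a difference of 0.63 and Fosl2 of 0.29, both called, and in ELA_SAFit2 mice both passed (Fosb 0.73, adjusted p = 0.0345; Fosl2 0.43, adjusted p = 0.0341). No member passed in Ctrl_Vehicle (0.0288% of genes) or ELA_Vehicle mice (0.023% of genes).

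Whether the response differed between the 6 regions was tested in 1 fit of all libraries and 15173 genes. Fosb was the only member with a difference among regions (adjusted p = 0.0141), where 0.277% of genes passed. Fosl2 had an adjusted p of 0.141. Of each region against the mean of the other 5, Fosb in the Nacc passed, with a response lower by 0.61 (log2 difference -0.61, -0.87 to -0.35, adjusted p = 0.0487), where 0.0132% of genes passed. No member passed for the mPFC (0.152% of genes), ACC (0%), BLA (0%), DMT (0.0659%) or vHipp (0.033%). With the mouse as a block, since the regions of a mouse share it, the difference of Fosb among regions had an adjusted p of 1.3e-07, and Fosl2 passed too (adjusted p = 0.0409). The Nacc value was then -0.59 (adjusted p = 5.78e-06), and Fosb in the mPFC exceeded the other regions by 0.39 (adjusted p = 0.0116), against 0.36 (adjusted p = 0.513) without the block.

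Some of these differences were not called without the 12 Nacc libraries. Without them, and without the block, Fosb had an adjusted p of 0.317 among regions and its Nacc value was -0.44 (-0.73 to -0.15, adjusted p = 1.0). Without them and with the block, the difference among regions remained below the threshold for Fosb (adjusted p = 8.49e-05) and not for Fosl2 (adjusted p = 0.167). The Nacc value was -0.35 (unadjusted p = 0.00019, adjusted p = 1.0), and the mPFC value 0.35 (adjusted p = 0.0108).

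The levels of NoInteraction mice gave the order of the regions for each gene on a common scale of CPM. For Fosb the means were 14.96 ± 5.86 CPM in the mPFC, 14.9 ± 5.28 for the Nacc, 14.6 ± 4.51 for the ACC, 12.3 ± 2.67 in the BLA, 7.07 ± 1.29 in the vHipp and 2.33 ± 0.765 in the DMT (SD, n = 21). Of neighbours in this order, the BLA exceeded the vHipp by 0.80 on the log2 scale (adjusted p = 1.45e-09) and the vHipp the DMT by 1.61 (adjusted p = 1.01e-24). The step from the ACC to the BLA (0.25) had an adjusted p of 0.0532, and 0.0107 with the mouse as a block. The mPFC, Nacc and ACC did not differ beyond their spread.

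Fosl2 and Junb shared the low level in the DMT. Fosl2 was at 45.8 ± 7.45 CPM in the vHipp and at 33.8 ± 11.1 in the Nacc, a difference of 0.44 (adjusted p = 7.36e-05), then between 30.2 and 26.5 CPM in the BLA, mPFC and ACC, whose neighbours did not differ. It was lowest in the DMT, with 5.41 ± 0.95 CPM, 2.29 below the ACC (adjusted p = 1.48e-48). Junb was between 50.8 and 41.4 CPM in the Nacc, mPFC, ACC and BLA, at 29.6 ± 5.81 in the vHipp and at 5.999 ± 1.17 in the DMT, 2.30 below the vHipp (adjusted p = 5.41e-34). The Nacc exceeded the mPFC in Junb only with the mouse as a block (0.27, adjusted p = 0.00636; without it 0.21, adjusted p = 0.168).

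Fos did not follow this pattern, since the DMT was not its lowest region. It was at 21.4 ± 19.8 CPM in the mPFC, 16.3 ± 12.2 for the ACC, 13.9 ± 7.68 in the DMT, 12.3 ± 8.68 in the Nacc, 7.75 ± 3.94 in the BLA and 4.25 ± 2.40 in the vHipp. Only the last steps passed, from the Nacc to the BLA (0.67, adjusted p = 0.0268) and from the BLA to the vHipp (0.85, adjusted p = 0.00689).

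Jun was highest in the vHipp, at 142 ± 23.1 CPM, 1.12 above the DMT with 65.1 ± 8.74 (adjusted p = 3.11e-35). The DMT exceeded the mPFC by 0.67 (adjusted p = 3.68e-16). The mPFC, ACC and BLA lay between 41.01 and 38.97 CPM and did not differ, and the Nacc was lowest, at 28.6 ± 4.31, 0.45 below the BLA (adjusted p = 4.85e-08). Jund went from 104.8 ± 9.07 CPM in the DMT to 68.1 ± 13.4 in the vHipp. The DMT exceeded the Nacc by 0.20 (adjusted p = 0.00184) and the mPFC the vHipp by 0.16 (adjusted p = 0.015), with no difference between the neighbours in between. No neighbours differed for Atf3, whose means lay between 0.225 CPM in the ACC and 0.427 CPM in the DMT, but 6 of its 15 pairs of regions did. The ACC was below the DMT by a log2 difference of -0.93 (adjusted p = 2.4e-05), and the mPFC by -0.78 (adjusted p = 0.000261). Over the 7 members and 15 pairs of regions 71 tests passed. The share of all genes that passed was 24.2% between mPFC and ACC. For the mPFC it was 72.4% against the Nacc, 68.5% against the BLA, 80.3% against the DMT and 71.6% against the vHipp. Against the same regions in turn it was 73.1%, 69.6%, 80.1% and 73.2% for the ACC. For the Nacc it was 62.8% against the BLA, 81.3% against the DMT and 72.4% against the vHipp. The BLA gave 80.8% against the DMT and 69.5% against the vHipp, and the DMT 81.9% against the vHipp. Without the 12 Nacc libraries 72 of these tests passed, and the difference of Fosl2 between the mPFC and Nacc no longer did (adjusted p = 0.0867, against 0.0389).

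**Figure D5:**
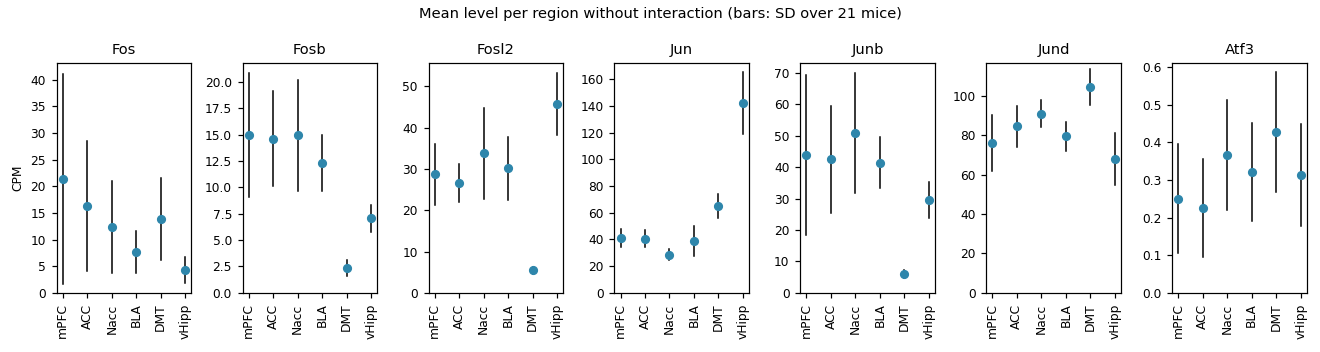
Mean CPM (y axis, from 0) of the 7 tested members in NoInteraction mice in each region (x axis); points are means and bars the SD over 21 mice. Fosb, Fosl2 and Junb are lowest in the DMT, Jun and Fosl2 are highest in the vHipp, and the bar of Fos in the mPFC, 19.8 CPM on either side of a mean of 21.4, is wider than its bars elsewhere.

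Genes whose deviations from the group means were most like those of the members over all libraries were other activity-regulated genes for Fos, Fosb and Junb. For Fos they were Dusp1 (Pearson's r = 0.88), Npas4 (0.87), Nr4a1 (0.82), Egr1 (0.82) and Btg2 (0.81). For Fosb it was Npas4 (0.80), an activity-induced factor of neurons, and for Junb it was Arc (0.85), which encodes a synaptic protein. The nearest gene was Garem1 for Fosl2 (0.54), Rasl11a for Jun (0.54), Notch2 for Atf3 (0.41) and Pcsk1n for Jund (0.93). These values are descriptions over libraries that share mice, depth and composition.

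The wider AP-1 pathway was followed with 5 gene lists. They were chosen with earlier results of these data known, so their counts describe the listed genes and do not test the pathway. Of the leucine zipper relatives that pair or compete with AP-1, 5 of 28 tested genes were higher and 1 lower in the mPFC, 4 and 0 of 28 in the ACC, 2 and 0 of 28 in the BLA, 1 and 1 of 28 in the DMT, 0 of 28 in the vHipp and 0 of 29 in the Nacc. Crem, which encodes activators and inducible repressors at CRE sites, was higher in the mPFC (0.35, adjusted p = 4.81e-06), ACC (0.24, adjusted p = 0.000308), DMT (0.22, adjusted p = 0.00767) and BLA (0.21, adjusted p = 0.0113). Bach2, which encodes a repressor, was lower in the DMT (-0.23, adjusted p = 0.00358). The median of the list was 0.04 in the mPFC, against -0.00 over all genes.

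Of the signalling genes that switch on Fos and Jun, 4 of 30 were higher and 3 lower in the mPFC, where 7.4% of all genes passed. Among the higher were the kinase gene Rps6ka3 (0.14, adjusted p = 0.000275) and the serum response cofactor gene Elk4 (0.10, adjusted p = 0.00852). Differences over the whole list there lay between -0.18 and 0.14, with a median of 0.006. In the ACC 1 of 30 was lower, Mapk3, the gene of the kinase ERK1 (-0.17, adjusted p = 0.00203). The BLA had 1 higher, Creb1 (0.09, adjusted p = 0.0425), and the DMT 1 lower, Rps6ka4 (-0.10, adjusted p = 0.0381), with 0 in the Nacc and vHipp. Among Jun kinases, turnover factors and repressors of AP-1, 4 of 15 were higher in the mPFC, 2 in the ACC, 1 in each of the BLA, DMT and vHipp, and 1 was lower in the BLA, Hdac3 (-0.07, adjusted p = 0.0498). Cop1, whose product marks Jun for degradation, was higher in the mPFC (0.13, adjusted p = 0.00143), ACC (0.10, adjusted p = 0.00775), vHipp (0.11, adjusted p = 0.0238) and BLA (0.09, adjusted p = 0.046).

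Among known targets of AP-1 factors, in the mPFC 5 of 20 were higher and 0 lower, among them Nptx2, which encodes a secreted pentraxin that clusters synaptic receptors (0.88, adjusted p = 1.64e-09), Inhba, the gene of an activin subunit (0.87, adjusted p = 1.72e-06), and Bdnf, the gene of a neurotrophin (0.64, adjusted p = 1.73e-06). In the ACC 5 of 19 were higher, in the BLA 2 of 20, in the DMT 2 of 19 and in the vHipp 1 of 19, Inhba (0.46, adjusted p = 0.00109). In the Nacc 0 of 20 passed. Other rapid primary response genes were higher in 5 of 40 cases in the mPFC and ACC, 2 of 40 in the BLA, 2 of 39 in the DMT, 1 of 40 in the vHipp and 0 of 40 in the Nacc, and none was lower. Egr3, an activity-induced transcription factor, had the smallest p of this list in the mPFC (0.89, adjusted p = 1.78e-07), ACC (0.63, adjusted p = 9.4e-06) and BLA (0.28, adjusted p = 0.00215). Medians of the list were 0.13 in the mPFC and 0.12 in the ACC, against -0.00 over all genes in both. These counts were made with the shares of all genes given with the pooled comparison as background.

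Markers of cell types were compared in the same fit, since punches can differ in what they hold. Of 16 lists, Cspg4 of oligodendrocyte precursors was higher in the mPFC (0.21), ACC (0.16) and BLA (0.14), where Pdgfra, the other gene of this list, had differences of 0.06, -0.05 and -0.02 that did not pass. The astrocyte gene Gja1 (-0.10) and the microglial gene P2ry12 (-0.17) were lower in the ACC. Of the other astrocyte genes there, Aqp4 (-0.20, adjusted p = 0.0518), Slc1a3 (-0.05) and Aldh1l1 (0.12, adjusted p = 0.121) did not pass, nor did Cx3cr1, Csf1r and Tmem119 of microglia, with differences between -0.06 and -0.03. No marker passed in the DMT, vHipp or Nacc, but sums of some lists varied widely between punches of a region. In the DMT, the 3 markers of inhibitory neurons summed to 11.4 to 180 CPM without and 17.4 to 307 CPM after interaction, and the choroid plexus markers to 0.783 to 1030 and 0.496 to 1345 CPM. Thalamic markers summed to 567 to 801 and 596 to 814 CPM there. In the mPFC the 4 neuronal markers summed to 4770 to 6186 CPM without and 4429 to 6160 CPM after interaction, and in the Nacc the markers of striatal projection neurons to 613 to 2437 and 1211 to 2089 CPM. The part of these differences in the responses of Fosb and Fosl2 was not tested.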

How the data were processed

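RNA was measured in 6 libraries per mouse of bilateral brain punches by stranded, poly(A)-selected, paired-end mRNA sequencing. The authors deposited 1 table of estimated counts per gene, merged from salmon. The submitters' processing notes name STAR, DESeq2 and the mouse build GRCm39 (mm39), without versions. Of the deposited values 12.12% were not whole, since these are estimated counts, and they were rounded to whole numbers before testing. All columns were mapped to a sample. Sampling depth is given in the report; totals set the precision of low genes such as Fosl1 and Atf3.

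Protein-coding genes (21915; 52073 of 56691 identifiers matched GENCODE M21, 978 were typed by RefSeq symbol and 3640 had no type) were kept if their counts summed to at least 100 in a region and at least 6 libraries had a count. Each region was fitted on its own with edgeR's quasi-likelihood test (TMM scaling) on 6 conditions, early-life group by interaction state, and p-values were adjusted over all genes tested (Benjamini-Hochberg, threshold 0.05). The pooled response is the mean of the 3 within-group differences. Differences between early-life groups and between regions are contrasts of the same kind, the latter in a joint fit of all regions. Counts were also summed over the regions of a mouse. Single values were tested by permuting interaction labels within early-life groups (100000 resamples) on log2 CPM with a pseudocount of 0.5. Intervals are 95%. Mice are the replicates, and nothing in the sources used here ties mice to litters, so p-values measure the spread between these mice.

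Regions of a mouse share its number. Deviations from group means of the same mouse in a pair of regions correlated between -0.32 and 0.71, with medians from 0.104 (Nacc and BLA) to 0.322 (mPFC and ACC), and the joint fit was repeated with the mouse as a block. Identity of libraries was checked with 60 genes per region, each with a median above 1 CPM over all libraries, that differ between mice. Alternatives were DESeq2, DESeq2's size factors (RLE) in edgeR, filterByExpr, no count filter, all gene types, an additive model, the mPFC without mouse 55, the Nacc without the libraries that match another mouse, and sums without the Nacc. Chosen after seeing the data were limma on log2 CPM (prior count 2), the ACC without mouse 95, the block without the mismatching Nacc libraries, and responses at an equal level of Fos or Fosb. The comparison of Fosb with each other member is not independent of the calls of Fosb.

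Named genes of each pathway list are those called, at most 3 per list and comparison with the smallest p; genes most like a member are those with the highest correlation of deviations. The members, the lists and this rule were chosen with earlier results of these data known. Promoters came from RefSeq. The fits were tested on simulated data. Versions were R 4.3.3, edgeR 4.0.16, limma 3.58.1, DESeq2 1.42.0, Python 3.11.15, NumPy 2.4.6, pandas 2.3.3 and Matplotlib 3.10.9.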

Additional observations from a re-analysis of the deposited data

Results flagged for a closer look

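In 252 groups of a gene, region, early-life group and interaction state, 19 had a highest or lowest mouse far from the others by Dixon's criterion, where chance gives about 1 in 20. The Ctrl_Vehicle NoInteraction mouse 41 was highest in 5 of these. Its Fosb was 22.99 CPM in the mPFC (next mouse 13.9), 18.4 in the ACC (13.04) and 3.49 in the DMT (2.20), and its Junb was 85.9 CPM in the mPFC (38.3) and 9.02 in the DMT (6.02). The ELA_SAFit2 SocialInteraction mouse 79 was highest in the mPFC for Fosl2 with 80.7 CPM (44.9), Jun with 56.4 (38.9) and Atf3 with 1.08 (0.332). The Ctrl_Vehicle SocialInteraction mouse 89 had the lowest Jund in the mPFC, 51.1 CPM (78.1), and the highest in the ACC, 158 CPM (85.3).

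Other mice stood apart in 1 group each. For Fosb these were a mouse in the ACC of ELA_Vehicle NoInteraction mice, lowest with 9.20 CPM (13.7), mouse 57 in the DMT of Ctrl_Vehicle SocialInteraction mice, highest with 6.16 CPM (4.16), and a mouse in the vHipp of ELA_SAFit2 SocialInteraction mice, lowest with 7.85 CPM (9.67). For Junb they were mouse 17 in the ACC of Ctrl_Vehicle SocialInteraction mice, lowest with 16.4 CPM (41.8), and mouse 1 in the vHipp of Ctrl_Vehicle NoInteraction mice, highest with 37.2 CPM (30.98). Fos was lowest in the Nacc library of mouse 59, ELA_Vehicle SocialInteraction, with 2.64 CPM (8.17), and this library is among the 12 that match another mouse. Jun was lowest in the DMT of mouse 15, ELA_SAFit2 NoInteraction, with 44.0 CPM (61.2). Atf3 was highest in the ACC of mouse 63, ELA_SAFit2 SocialInteraction, with 0.444 CPM (0.174), and in the vHipp of mouse 5, ELA_Vehicle NoInteraction, with 0.723 CPM (0.348).

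The response of Fosb differed among the 6 regions (edgeR's quasi-likelihood test, adjusted p = 0.0141), and in the Nacc it was lower than in the other 5 by a log2 difference of -0.61. Without the 12 Nacc libraries that match another mouse the adjusted p of the first was 0.317 and the Nacc value was -0.44 (adjusted p = 1.0). With the mouse as a block and without these libraries, the difference among regions was called (adjusted p = 8.49e-05) and the Nacc value was not (-0.35, adjusted p = 1.0).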

How the results depend on the processing

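The pooled calls of members kept their number in each region in all 45 recomputed counts, and none of 315 log2 differences of members crossed the threshold. In 3 of these, all uncalled, the sign turned: without the 12 Nacc libraries Fosl2 in the Nacc went from -0.00 to 0.20 and Jun from -0.01 to 0.053, and with limma Jun in the BLA went from -0.02 to 0.0038. Leaving out 1 mouse moved Fosb between 0.79 (without mouse 79) and 0.91 (without mouse 7) in the mPFC, 0.64 and 0.74 in the ACC, 0.40 and 0.47 in the BLA, 0.76 and 0.86 in the DMT and 0.42 and 0.48 in the vHipp. Within early-life groups, DESeq2 called 1 member in place of 0 in the DMT of Ctrl_Vehicle mice and in the ACC and DMT of ELA_SAFit2 mice, and 2 in place of 0 in the mPFC of ELA_SAFit2 mice, where limma called 1. With regions summed, 2 members in place of 1 were called in ELA_SAFit2 mice by DESeq2 and also without the Nacc. In the joint fit, 1 member differed among regions, 2 with the mouse as a block and 0 without the 12 Nacc libraries. For the mPFC against the other 5 regions 0 members were called, 1 with the block and 1 with the block and without the 12 libraries. For the Nacc 1 was called, 0 without the 12 libraries and 0 with the block and without them. The block also moved gene counts among regions from 42 to 104 (79 without the 12 libraries), for the mPFC from 23 to 48 (44), for the Nacc from 2 to 36 (0, also 0 without the block), for the BLA from 0 to 1 (3) and for the DMT from 10 to 16 when the 12 libraries were also left out. Level differences between regions numbered 71, and 78 with the block. The cause of these changes was not tested.

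Counts of genes differed by more than 1.5 times mainly with DESeq2. Pooled counts were 469 against 239 in the BLA, 382 against 253 in the DMT and 304 against 190 in the vHipp. In Ctrl_Vehicle, ELA_Vehicle and ELA_SAFit2 mice DESeq2 called 71, 71 and 360 genes in the mPFC (edgeR 27, 7 and 191), 55, 68 and 84 in the ACC (0, 3 and 11), 0, 2 and 5 in the Nacc (0 in each), 7, 11 and 15 in the BLA (0 in each), 6, 5 and 68 in the DMT (1, 0 and 6) and 6, 14 and 37 in the vHipp (3, 0 and 5). With regions summed it called 44, 148 and 519 within groups (5, 4 and 280), and without the Nacc 21 and 42 were called in Ctrl_Vehicle and ELA_Vehicle mice. Differences between early-life groups gave 0 to 4 genes with DESeq2 and 0 to 6 with edgeR. Other gene counts that moved were the mPFC of ELA_SAFit2 mice without mouse 55 (110 against 191), the ACC of ELA_SAFit2 mice with filterByExpr (18 against 11) or no filter (6), and the Nacc without the 12 libraries (4 against 0). The comparisons between early-life groups at an equal interaction state were not recomputed. Fosl1 had at most 4 counts in a library and Atf3 a median of 8.

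Other values that turned sign were uncalled under both settings, 17 of 798 within early-life groups, 8 of 448 differences between groups and 2 of 60 with regions summed. Without the 12 Nacc libraries, Nacc values in Ctrl_Vehicle mice became 0.23 for Fosl2, 0.039 for Jun, 0.091 for Junb and 0.013 for Jund, and in ELA_Vehicle mice 0.074 for Fosl2 and 0.024 for Jun. The difference ELA_Vehicle minus Ctrl_Vehicle became -0.16 for Fosl2, -0.014 for Jun and -0.064 for Junb, and ELA_SAFit2 minus ELA_Vehicle 0.036 for Atf3. With limma, Fos in the Nacc became -0.039 in Ctrl_Vehicle and 0.13 in ELA_SAFit2 mice, Fosb in the Nacc 0.0035 and Jun -0.00063 in ELA_SAFit2 mice, Fos in the DMT 0.048 in ELA_Vehicle mice and Jun in the DMT 1.7e-05 in ELA_SAFit2 mice. In ELA_SAFit2 mice Jund in the Nacc became -0.0021 with filterByExpr, -0.0069 with all gene types and -0.0027 without a count filter, Jun in the BLA -0.00081 with all gene types and Atf3 in the vHipp -0.00052 with DESeq2. The difference of Fosl2 in the mPFC between ELA_Vehicle and Ctrl_Vehicle became 0.0032 with DESeq2, 0.0039 with RLE factors, 0.00024 without a count filter and 0.0054 with filterByExpr. With regions summed, in ELA_Vehicle mice Jund became 0.00015 with DESeq2 and Atf3 0.061 without the Nacc.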
